A study of Bos taurus with 14 samples.

Results

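Endothelial cells form the inner wall of every blood vessel, and in skeletal muscle most of them line the capillaries that run beside the fibres. They are held to one another by junction and adhesion proteins, they receive growth and survival signals through receptors for VEGF, the vascular endothelial growth factor, and for the angiopoietins, and they take part in clotting and in Wnt signalling. The expression of 10 genes with these roles was examined in *M. longissimus dorsi* (LD) muscle of cattle. They are the adhesion and junction genes *PECAM1*, *CDH5*, *ESAM* and *CLDN5*, the VEGF receptors *KDR* and *FLT1*, the angiopoietin receptor *TEK* with its partner *TIE1*, the clotting factor gene *VWF* and the Wnt and norrin receptor *FZD4*. A probe set, a group of short probes on the array that reads 1 transcript, was taken as a member when the array annotation gave it 1 of these symbols and no other. This gave 16 probe sets for 9 of the 10 genes, among 24016 bovine probe sets on the array, and no probe set carried the symbol *ESAM*.

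The muscle came from 7 heifers finished outdoors (outdoor/pasture-fed) and 7 finished indoors (indoor/concentrate-fed), with 1 Affymetrix GeneChip Bovine Genome Array per animal. All were Charolais × Limousin crosses, assigned at random to a system and kept in it for the year before slaughter. The outdoor/pasture-fed heifers grazed a sward of mainly ryegrass, meadow grass and clover, while the indoor/concentrate-fed heifers were housed and ate barley and beet pulp concentrate with straw, in amounts meant to give a similar growth rate. Place and diet therefore differed together and cannot be told apart. The study gives age only at assignment. The heifers were managed in several grazing groups or pens, which the sample labels do not name, so the tests treat each animal as independent.

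Values are log2 expression values, on which a difference of 1 is a doubling. The FARMS summarisation leaves a probe set nearly constant when its probes show no shared signal, and 59.9% of the 24016 probe sets were flat in this sense (SD over the 14 arrays of 0.01 or less). The array medians lay between 6.77 and 6.84, and no pair of arrays held identical values. The muscle fibre genes were at the top of the scale in both groups, with *ACTA1*, skeletal actin, at 14.11 and *CKM*, muscle creatine kinase, at 13.81. Both were read by flat probe sets, so these values do not compare the groups, and a varying probe set of *CKM* was not read. In whole muscle, more endothelial cells and more RNA of a gene per endothelial cell cannot be told apart.

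Of the 16 endothelial probe sets, 9 varied between animals and 7 were flat. The varying ones had SDs of 0.206 or more and stand for 8 genes, with 2 for *PECAM1*, while the largest SD among the flat ones was 0.000143. Both probe sets of *VWF*, the carrier of clotting factor VIII that is a classical endothelial marker, were flat at 5.75 and 5.74, so this gene could not be compared. The other flat probe sets were further ones of *CDH5*, *KDR*, *FLT1* and *FZD4*.

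All 9 varying probe sets had a higher mean in outdoor/pasture-fed muscle, where 47.5% of all varying probe sets did. None of the 16 passed limma's adjusted p threshold of 0.05 over all probe sets, a threshold that 4 probe sets of the series passed (0.0167%). When only the varying probe sets were tested 33 of them passed (0.343%), and again none of the endothelial ones, for which the smallest adjusted p was 0.0516. The 33 rests on the set of animals, with 7 without outdoor/pasture-fed heifer 4 and 68 without indoor/concentrate-fed heifer 6. At an unadjusted p under 0.05, 10 of the 16 had a higher mean in outdoor/pasture-fed muscle, against 5.35% of all probe sets, and 9 of the 9 varying ones did, against 9.23% of the varying probe sets. The tenth was the flat *KDR* probe set Bt.29836.1.A1_at, whose groups differed by only 0.00016. In 2 of the 16, both of them *PECAM1*, every outdoor/pasture-fed heifer was above every one on concentrate, against 0.217% of all probe sets. The differences lay between 0.23 and 0.59 on the log2 scale, or 1.17-fold to 1.51-fold.

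**Figure D1:**
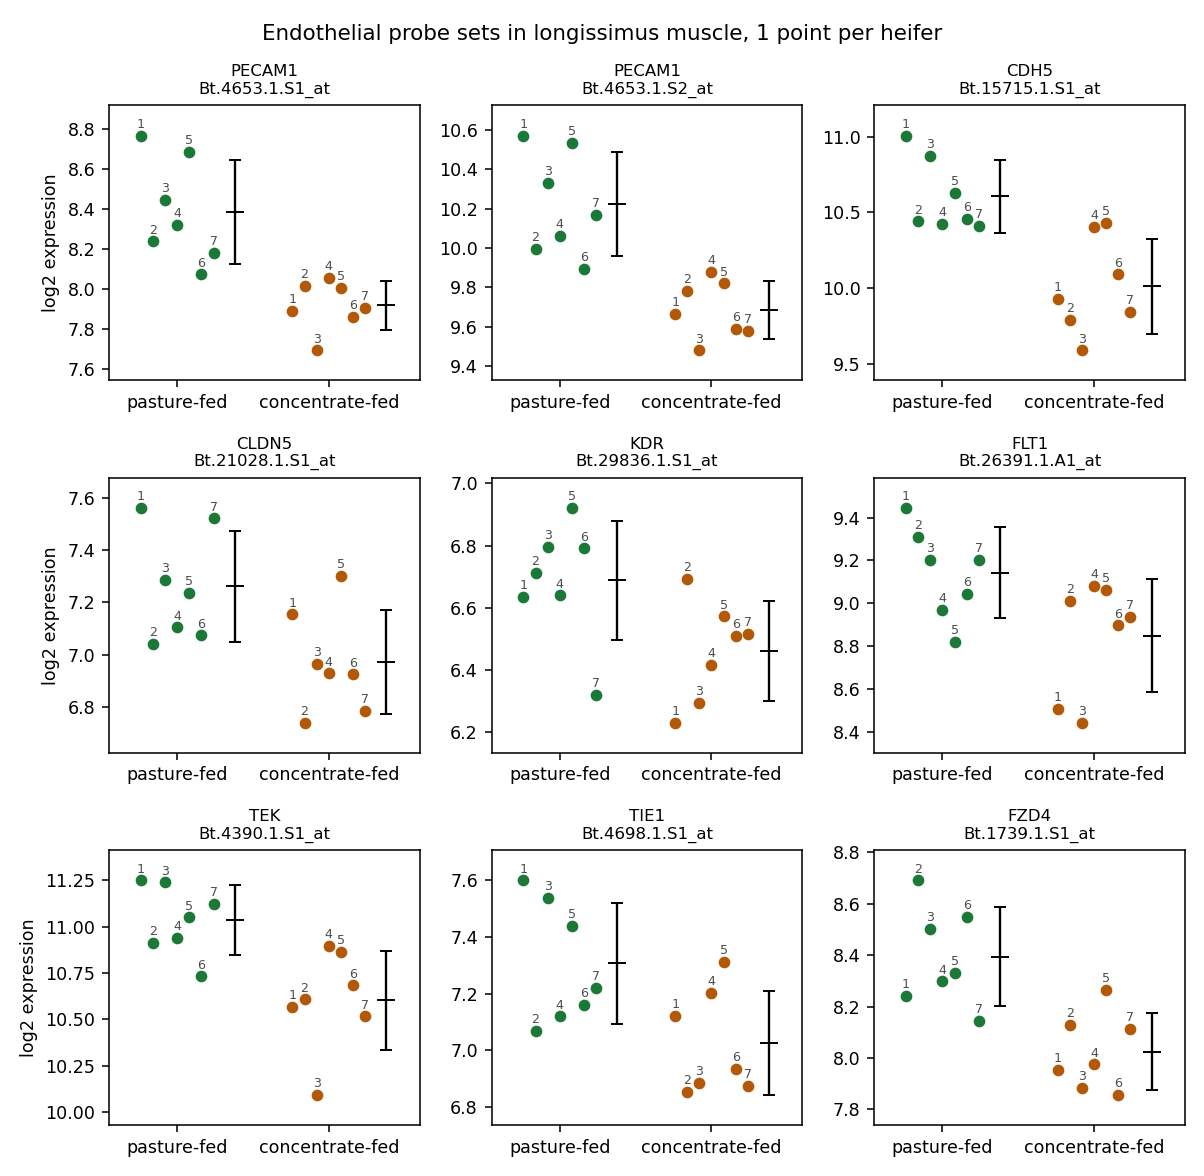
Log2 expression of the 9 varying endothelial probe sets in LD muscle, with 1 point per heifer labelled by its replicate number; the black bars are the group mean ± SD (n = 7 each). Only the 2 *PECAM1* probe sets show no overlap between the outdoor/pasture-fed heifers and those on concentrate, and in both the gap is narrow.

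Among the adhesion and junction genes, *PECAM1* encodes a surface protein by which endothelial cells, platelets and leukocytes adhere. Its probe set Bt.4653.1.S2_at had a lowest, median and highest value of 9.89, 10.17 and 10.57 in outdoor/pasture-fed heifers, against 9.48, 9.66 and 9.88 in indoor/concentrate-fed heifers. Every outdoor/pasture-fed heifer was thus above every indoor/concentrate-fed one, with heifers 1 and 5 highest at pasture and heifer 3 lowest on concentrate. The difference was 0.54 (SE 0.11), with a limma adjusted p of 0.147 and a two-sided exact permutation p of 0.000583, the smallest that 7 against 7 can give. The other probe set, Bt.4653.1.S1_at, read lower levels, with 8.08, 8.32 and 8.77 in outdoor/pasture-fed heifers, against 7.69, 7.91 and 8.06 in indoor/concentrate-fed heifers. Its groups did not overlap either, and the difference was 0.47 (SE 0.11, limma adjusted p = 0.178, exact permutation p = 0.000583). The pair of probe sets ranked the animals much alike, with r = 0.95 over the 14 values after the group means were taken out.

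*CDH5* encodes VE-cadherin, the cadherin of endothelial adherens junctions. It had the largest difference of the 16, 0.59 (SE 0.15), or 1.51-fold, with a limma adjusted p of 0.200 and an exact permutation p of 0.00233. At Bt.15715.1.S1_at the lowest, median and highest values were 10.41, 10.46 and 11.01 in outdoor/pasture-fed heifers, against 9.59, 9.93 and 10.43 in indoor/concentrate-fed heifers. The overlap came from heifer 5 on concentrate, with heifer 4 just under the lowest value at pasture, and 5 of 7 outdoor/pasture-fed heifers were above all those on concentrate. *CLDN5*, the tight junction claudin of endothelium, overlapped more widely, with 7.04, 7.24 and 7.56 in outdoor/pasture-fed heifers, against 6.74, 6.93 and 7.30 in indoor/concentrate-fed heifers. Its difference was 0.29 (SE 0.11, limma adjusted p = 0.331, exact permutation p = 0.0227).

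The VEGF receptors had the smallest differences relative to their error. *KDR*, the main signalling receptor for VEGFA, was read near the low end of the scale by Bt.29836.1.S1_at, with 6.32, 6.71 and 6.92 in outdoor/pasture-fed heifers, against 6.23, 6.51 and 6.69 in indoor/concentrate-fed heifers. Heifer 7 at pasture lay among the lowest 3 of all 14, and the difference was 0.23 (SE 0.09, limma adjusted p = 0.383, exact permutation p = 0.0361). *FLT1*, the high-affinity VEGF receptor that also acts as a decoy, had 8.82, 9.20 and 9.44 at Bt.26391.1.A1_at in outdoor/pasture-fed heifers, against 8.44, 8.93 and 9.08 in indoor/concentrate-fed heifers. Heifers 1 and 3 on concentrate stood well below the rest, and the difference was 0.29 (SE 0.13, limma adjusted p = 0.405, exact permutation p = 0.0408).

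*TEK* encodes TIE2, the receptor that angiopoietins bind, and *TIE1* its orphan partner. *TEK* had 10.73, 11.05 and 11.25 at Bt.4390.1.S1_at in outdoor/pasture-fed heifers, against 10.09, 10.61 and 10.90 in indoor/concentrate-fed heifers. All but 1 of the outdoor/pasture-fed heifers were above every one on concentrate, and the difference was 0.43 (SE 0.12, limma adjusted p = 0.234, exact permutation p = 0.00291). *TIE1* overlapped in more animals, with 7.07, 7.22 and 7.60 at Bt.4698.1.S1_at in outdoor/pasture-fed heifers, against 6.85, 6.94 and 7.31 in indoor/concentrate-fed heifers. Its difference was 0.28 (SE 0.11, limma adjusted p = 0.337, exact permutation p = 0.0251).

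*FZD4* encodes a frizzled receptor that transmits norrin and Wnt signals, known for its part in the vessels of the retina. At its varying probe set, Bt.1739.1.S1_at, the lowest, median and highest values were 8.14, 8.33 and 8.69 in outdoor/pasture-fed heifers, against 7.85, 7.97 and 8.27 in indoor/concentrate-fed heifers. Here heifers 2 and 6 were highest at pasture, which were not the highest for the junction genes, and the difference was 0.37 (SE 0.09, limma adjusted p = 0.197, exact permutation p = 0.00233). The probe set that the study itself reports as *FZD4*, Bt.1739.2.S1_at, has no symbol in the annotation used here and was not counted as a member. The study picked it on these same arrays, so its values are given as a description only. They were 7.80, 8.30 and 8.53 in outdoor/pasture-fed heifers, against 7.41, 7.60 and 7.82 in indoor/concentrate-fed heifers. The difference was 0.62 (SE 0.11, limma adjusted p = 0.114), larger than that of any of the 16 members. For this probe set the study lists the same reference sequence as for its *FYN* probe set. The study also measured *FZD4* by QPCR in a larger set of heifers that included these. There it names *ARHGDIB* and *STK40*, and not *FZD4*, as genes without a significant difference.

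The scaling factors in the study's quality sheet single out 5 arrays with the highest factors, 2 outdoor/pasture-fed and 3 indoor/concentrate-fed, which on concentrate are heifers 4, 5 and 6. In the other 9 arrays every one of the 9 probe sets was higher in outdoor/pasture-fed heifers, by 0.19 for *KDR* to 0.84 for *CDH5*. Within the 5 arrays the differences were 0.45 and 0.41 for *PECAM1*, 0.41 for *FZD4*, 0.36 for *KDR* and 0.23 for *CDH5*. They were 0.15 for *TIE1*, 0.10 for *CLDN5*, 0.08 for *TEK* and -0.08 for *FLT1*, so that the sign for *FLT1* was the opposite there. With 2 animals against 3 these values carry no test.

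The next question was whether the genes were high in the same animals. For this, 1 probe set per gene was used, the one with the highest mean, which left 8 genes. Outdoor/pasture-fed heifers 1 and 3 were above the median of the 14 arrays for 8 of 8 genes, and each was among the highest 3 animals for 6 of them. The other outdoor/pasture-fed heifers were above that median for 5 to 7 genes. Among indoor/concentrate-fed heifers, number 5 was above it for 5 genes, number 4 for 3, numbers 1 and 2 for 1 each, and numbers 3, 6 and 7 for 0. Indoor/concentrate-fed heifer 3 was among the lowest 3 animals for 7 of 8 genes. The difference between the groups enters these counts. Against the median of their own group, outdoor/pasture-fed heifers 1 and 3 were above it for 6 and 7 genes, number 4 for 0 and the others for 2 to 4. Indoor/concentrate-fed heifer 5 was above its own for 8 genes, number 3 for 1 and the others for 2 to 5.

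**Figure D2:**
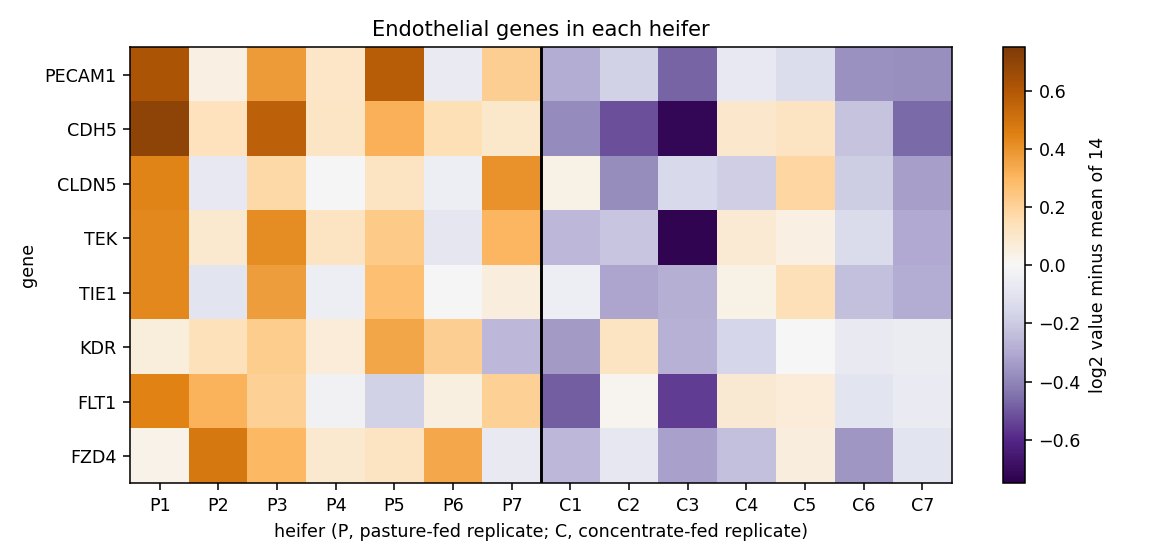
Deviation of each gene's log2 value from its mean over the 14 arrays (colour scale), for 8 endothelial genes (rows) in 7 outdoor/pasture-fed (P) and 7 indoor/concentrate-fed (C) heifers (columns). Heifers 1 and 3 at pasture are above the mean in every row and heifer 3 on concentrate is below it in every row.

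Since a difference between the groups alone makes genes move together, the group means were taken out before the genes were correlated. Over the 28 pairs of genes, the median Pearson r of the remaining deviations was 0.32, with 23 pairs above 0, 11 above 0.5 and 5 below 0. Without outdoor/pasture-fed heifer 5 the median was 0.47, and without indoor/concentrate-fed heifer 3 it was 0.21. *PECAM1*, *CDH5*, *CLDN5*, *TEK* and *TIE1* correlated with one another in each of their 10 pairs, with r between 0.48 and 0.87 and a median of 0.72, which stayed between 0.67 and 0.77 when any 1 animal was left out. The 15 pairs of these genes with *KDR*, *FLT1* and *FZD4* had a median r of 0.12, and the 3 pairs among *KDR*, *FLT1* and *FZD4* had r between 0.20 and 0.59. The highest of the 15 were those of *FLT1* with *TEK* (r = 0.67) and with *CDH5* (r = 0.58). These sets were formed after the correlations had been seen, the difference between them was not tested, and the split is not sharp. With the mean of the other 7 genes, *FLT1* had r = 0.53 and *CLDN5* 0.32, while the others ran from 0.08 for *FZD4* and 0.20 for *KDR* to 0.90 for *CDH5*.

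**Figure D3:**
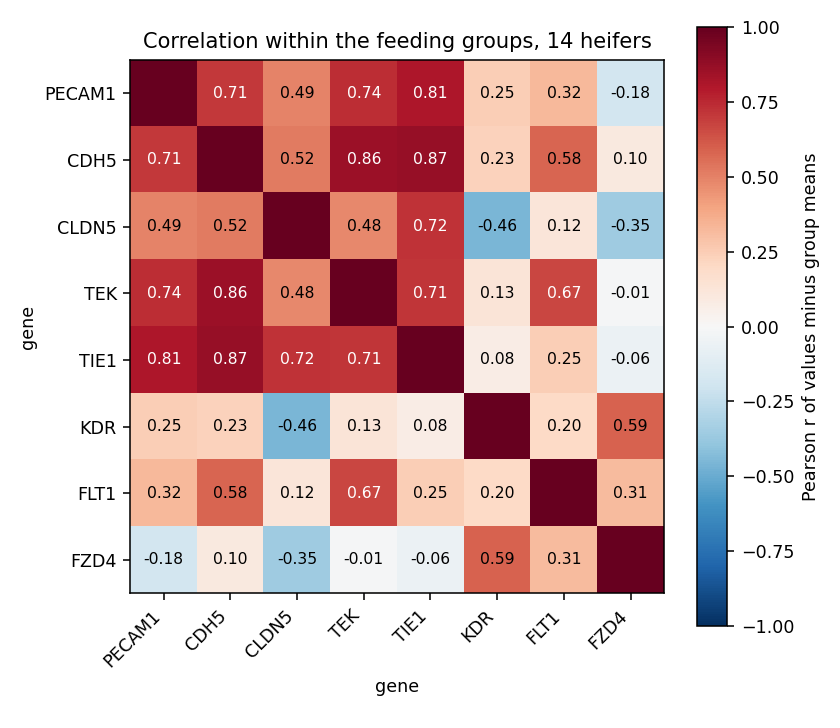
Pearson r between 8 endothelial genes over 14 heifers, each value taken minus its group mean; the colour scale runs from -1 to 1. The block of *PECAM1*, *CDH5*, *CLDN5*, *TEK* and *TIE1* holds r of 0.48 or more, while *KDR* and *FZD4* have low or negative r with most of that block and 0.59 with each other.

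The closest pair was *CDH5* and *TIE1* (r = 0.87). In the outdoor/pasture-fed heifers alone r was 0.94 and Spearman's rho 0.75, with exact permutation p-values of 0.00357 and 0.0663. In the indoor/concentrate-fed heifers r was 0.85 and rho 0.86, with exact permutation p-values of 0.0175 and 0.0238. Without the 2 animals farthest from the median of *CDH5*, r was 0.87 at pasture and 0.41 on concentrate. *CDH5* and *TEK* had r = 0.75 and rho = 0.50 at pasture, against r = 0.91 and rho = 0.86 on concentrate, and the r at pasture was 0.18 without the 2 farthest animals. The smallest adjusted exact permutation p over the 56 values, 28 pairs in 2 groups, was that of *CDH5* and *TEK* on concentrate, 0.0889 (0.147 for rho). No pair passed 0.05 after adjustment, and 6 pairs in each group had an unadjusted exact p under 0.05. On concentrate, heifers 4, 5 and 6, whose arrays had high scaling factors, were above heifers 1, 2, 3 and 7 for *CDH5* and *TEK* alike. For *CDH5* they had 10.09 to 10.43 against 9.59 to 9.93, and for *TEK* 10.68 to 10.90 against 10.09 to 10.61. The exact tests treated all arrays of a group alike, and the part of the array set in single pairs was not tested.

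*KDR* and *FZD4* had lower r with *PECAM1*, *CDH5*, *CLDN5*, *TEK* and *TIE1*. Their own pair had r = 0.59, and it lay between 0.43 and 0.70 when any 1 animal was left out. *KDR* had r between -0.46, with *CLDN5*, and 0.25, with *PECAM1*, for the same 5 genes. *FZD4* had r between -0.35 and 0.10 with these 5, and its r with *PECAM1* was -0.50 at pasture and 0.54 on concentrate (exact permutation p = 0.253 and 0.204). The opposite signs come from groups of 7 and the difference between them was not tested.

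The pair of probe sets from the same transcript cluster, Bt.1739.1.S1_at and Bt.1739.2.S1_at, did not rank the animals alike within the groups. Their r was -0.27 over the 14 deviations and 0.16 without outdoor/pasture-fed heifer 2, which was highest of all on the first and lowest at pasture on the second. The second had r = 0.70 with *TIE1*, 0.66 with *PECAM1* and 0.55 with *CDH5*, and 0.07 with *KDR*. The annotation does not settle whether both read *FZD4*. With the second in place of the first, the median r over the 28 pairs was 0.49, a choice made after the data were seen.

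**Figure D4:**
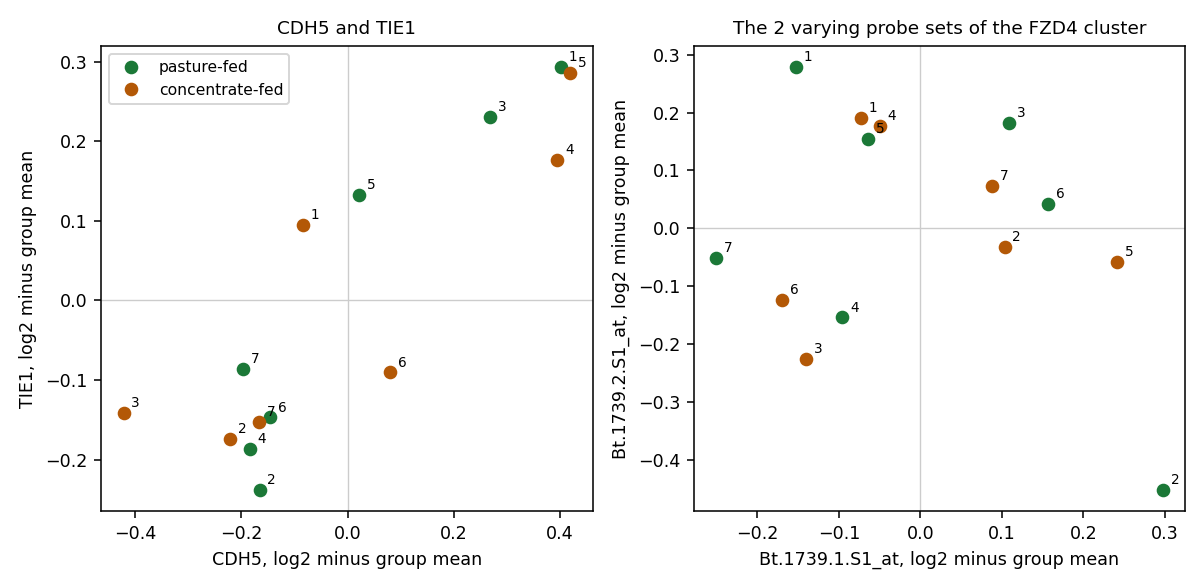
Left, *TIE1* against *CDH5*; right, probe set Bt.1739.2.S1_at against Bt.1739.1.S1_at, both axes in log2 minus the group mean, with 1 point per heifer labelled by its replicate number. *CDH5* and *TIE1* lie along a line in both groups (r = 0.87), while the Bt.1739 probe sets do not (r = -0.27), with outdoor/pasture-fed heifer 2 apart at the lower right.

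Each gene was also set against all 9623 varying probe sets. Of the 97 that correlated best with it (the top 1%), *CDH5*, *TEK* and *TIE1* each had 2 of the other 7 genes, *PECAM1* and *CLDN5* had 1 each, and *KDR*, *FLT1* and *FZD4* had 0. The median r with all varying probe sets was between -0.02 and 0.06 for each of the 8. The 10 named probe sets outside the list whose deviations were most like the mean of the 8 genes, with r from 0.85 to 0.91 over the 14 animals, were those of *NEDD9*, *ADGRL4*, *ARHGAP31*, *JCAD*, *ADGRF5*, *TM4SF1*, *ID3*, *FNBP1L*, *CDC42EP4* and *PTPN12*. Of these, *ADGRL4* (r = 0.91) encodes an adhesion receptor of endothelium, and its mean was 8.44 in outdoor/pasture-fed muscle and 7.78 in indoor/concentrate-fed muscle. All 10 had a higher mean in outdoor/pasture-fed muscle, where 47.5% of all varying probe sets did. The differences ran from 0.10 for *PTPN12* to 0.66 for *ADGRL4*, and that of *NEDD9*, the most like, was 0.29.

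A wider list held 30 other endothelial genes, of which 21 had a probe set by symbol and 19 varied. The study also names a probe set for *GPIHBP1*, the anchor of lipoprotein lipase on capillaries, which has no symbol in the annotation used here and was not counted. All 19 had a higher mean in outdoor/pasture-fed muscle, with a median difference of 0.16, against a median of -0.01 over all varying probe sets. None passed limma's adjusted threshold. At an unadjusted p under 0.05, 10 of the 19 had a higher mean at pasture, against 9.23% of the varying probe sets. *CD93*, a surface lectin of endothelium and myeloid cells, had 6.96, 7.36 and 7.90 as lowest, median and highest value in outdoor/pasture-fed heifers, against 6.40, 6.88 and 6.97 in indoor/concentrate-fed heifers. The ranges barely overlapped, and the difference was 0.63 (SE 0.16, limma adjusted p = 0.197, exact permutation p = 0.00117). *S1PR1*, the sphingosine 1-phosphate receptor that stabilises vessels, differed by 0.16 (SE 0.04, limma adjusted p = 0.200). The smallest differences on the list were 0.01 for *NOS3*, the endothelial nitric oxide synthase, 0.02 for *AQP1*, the water channel of capillaries, and 0.05 for *THBD*, thrombomodulin, and these genes were singled out after their values were seen.

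A list of 15 genes held ligands of these receptors, their co-receptors, upstream factors and the angiopoietin-like *ANGPTL4*. Of these, 11 varied, 10 of them with a higher mean at pasture, and the median difference was 0.30. None of the list passed the adjusted threshold. At an unadjusted p under 0.05, 4 of the 11 had a higher mean at pasture, against the same 9.23% of the varying probe sets. *NRP1*, a co-receptor that presents VEGF to *KDR*, had a mean of 11.20 ± 0.06 in outdoor/pasture-fed heifers and 11.02 ± 0.10 in indoor/concentrate-fed heifers (SD, n = 7 each), a difference of 0.17 (SE 0.04, limma adjusted p = 0.206). *EPAS1*, the hypoxia-inducible factor of endothelium, differed by 0.31 (SE 0.12, limma adjusted p = 0.365). The 1 varying gene with a lower mean at pasture was *PPARGC1A*, a coactivator of mitochondrial genes that induces VEGFA in mouse muscle, at -0.27 (SE 0.16, limma adjusted p = 0.557). *VEGFA* itself differed by 0.06 (SE 0.17, limma adjusted p = 0.930), with 10.63 to 11.08 in outdoor/pasture-fed heifers, inside the range of 10.26 to 11.45 in indoor/concentrate-fed heifers. *PPARGC1A* had 4 probe sets and *VEGFA* 2, all of them varying, and only the one with the highest mean was read for each gene.

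Of 11 partners of *FZD4*, 8 had a probe set and 3 varied. The ligand *NDP* (norrin) and the co-receptors *LRP5* and *TSPAN12* were flat. None of the 3 varying partners had an unadjusted p under 0.05 in limma. Of all 9623 varying probe sets, 888 had such a p with a higher mean at pasture and 1027 with a lower one. *LEF1*, a transcription factor of Wnt signalling, differed by 0.15 (SE 0.08) and the adaptor *DVL2* by -0.09 (SE 0.07), with limma adjusted p-values of 0.498 and 0.707. Among 10 junction partners, 6 varied, 4 with a higher mean at pasture, and the median difference was 0.12. Those with a lower mean were the catenin *CTNNA1*, at -0.35 (SE 0.20, limma adjusted p = 0.539), and *JUP*, at -0.003 (SE 0.08). The scaffold *TJP1* differed by 0.19 (SE 0.05, limma adjusted p = 0.188) and *JAM2*, an adhesion molecule of venules, by 0.38 (SE 0.10, limma adjusted p = 0.232). Of 8 Notch genes, 3 varied, 2 with a higher and 1 with a lower mean at pasture, the ligand *DLL4* at -0.02 (SE 0.07). *NOTCH4*, the Notch receptor of endothelium, differed by 0.33 (SE 0.14, limma adjusted p = 0.384) and *JAG1*, a ligand, by 0.11 (SE 0.14, limma adjusted p = 0.833), which was 0.04 without outdoor/pasture-fed heifer 7.

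**Figure D5:**
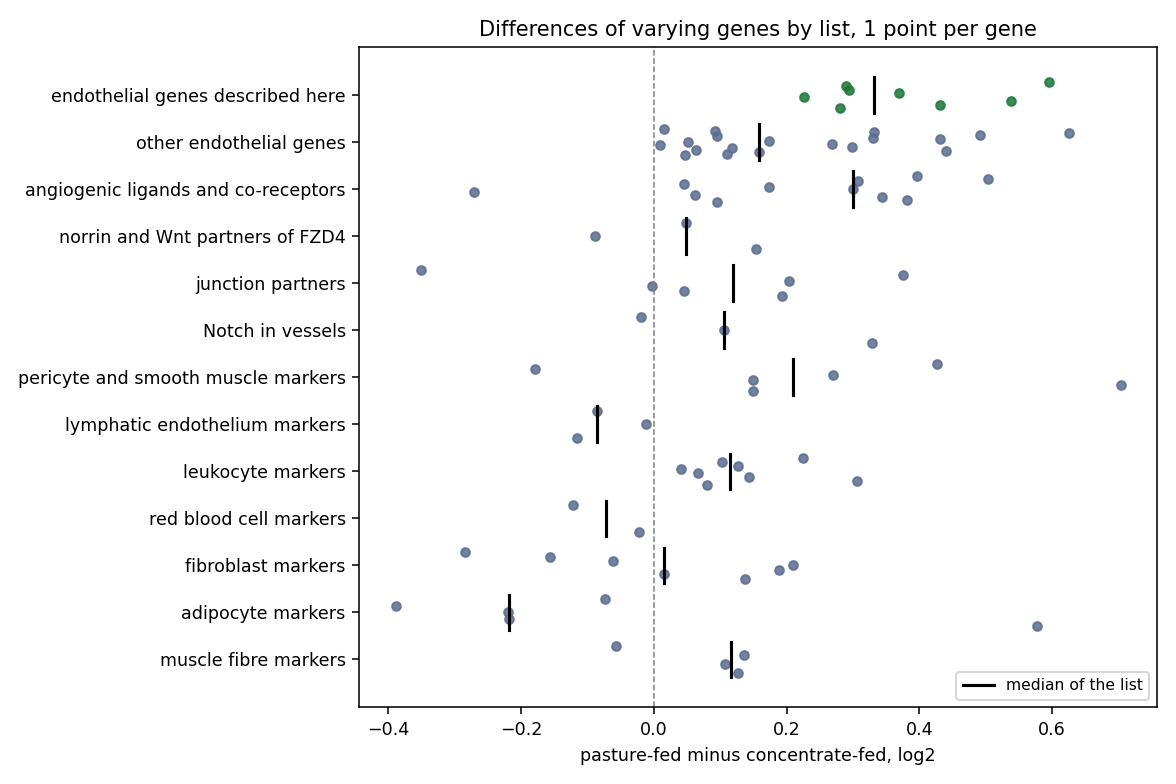
Difference of each varying gene, outdoor/pasture-fed minus indoor/concentrate-fed in log2, with 1 point per gene and a black line at the median of each list. The 8 endothelial genes lie between 0.23 and 0.59, and the adipocyte, red blood cell and lymphatic lists have medians below 0.

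Markers of other cells in the muscle were examined beside the endothelial genes. Pericytes wrap capillaries, and smooth muscle wraps larger vessels. Of 10 markers of both, 6 varied, 5 with a higher mean at pasture and a median difference of 0.21, and their mean level ran from 7.63 to 8.27 in outdoor/pasture-fed heifers and from 7.29 to 8.08 in indoor/concentrate-fed heifers. *RGS5*, a regulator of G protein signalling typical of pericytes, had 7.87, 8.22 and 8.71 in outdoor/pasture-fed heifers, against 6.93, 7.61 and 7.99 in indoor/concentrate-fed heifers. Its difference was 0.70 (SE 0.17, limma adjusted p = 0.188, exact permutation p = 0.00117), larger than that of any of the 16 endothelial probe sets, and its r with the mean of the 8 genes within the groups was 0.82. *KCNJ8*, a potassium channel of pericytes, differed by 0.27 (SE 0.09, limma adjusted p = 0.276), and its r with that mean was 0.44. Over the 6 varying markers this r ran from 0.18 to 0.82, with a median of 0.38. The 19 varying genes of the wider endothelial list had a median of 0.61. The pericyte marker *PDGFRB* was flat, as was the probe set by which *CSPG4* was read, the one with the highest mean of its 3, while 1 of the others varied. The part of these cells in the differences was not tested.

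The leukocyte, lymphatic, red blood cell and fibroblast lists each had 0 varying genes with an unadjusted p under 0.05 in limma and 0 past the adjusted threshold. They held only 8, 3, 2 and 7 varying genes. Of all 9623 varying probe sets, 888 had such an unadjusted p with a higher mean at pasture and 1027 with a lower one. Whether the counts of 0 fall short of that share was not tested. Of 11 leukocyte markers, which bear on *PECAM1* since leukocytes also express it, 8 varied, all with a higher mean at pasture and a median difference of 0.11. Their mean level was 6.79 to 7.42 in outdoor/pasture-fed heifers and 6.41 to 7.32 in indoor/concentrate-fed heifers, and their median r with the mean of the 8 endothelial genes was -0.12. Their r with *PECAM1* alone was not computed. *PTPRC* (CD45) differed by 0.31 (SE 0.24, limma adjusted p = 0.680) and *CD3E* of T cells by 0.13 (SE 0.08, limma adjusted p = 0.562). Platelets carry *PECAM1* and *VWF* too, and both of their markers with a probe set, *PF4* and *ITGA2B*, were flat at 5.57 and 5.47.

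Of 5 lymphatic markers, 3 varied, with a median difference of -0.08 and levels of 6.65 to 7.45 in outdoor/pasture-fed heifers and 6.85 to 7.64 in indoor/concentrate-fed heifers. The lymphatic VEGF receptor *FLT4* was flat, and *CCL21* differed by -0.08 (SE 0.13, limma adjusted p = 0.864). Of 7 red blood cell markers, 2 varied, both with a lower mean at pasture. *AHSP*, a chaperone of haemoglobin, differed by -0.12 (SE 0.06, limma adjusted p = 0.505), and the haemoglobin gene *HBM* was flat at 5.72. The 7 fibroblast markers had a median difference of 0.02 and levels of 10.34 to 11.97 in outdoor/pasture-fed heifers and 10.58 to 11.48 in indoor/concentrate-fed heifers, with *DCN* at 0.21 (SE 0.15) and *PDGFRA* at 0.14 (SE 0.19). Without outdoor/pasture-fed heifer 5 these were 0.13 and 2.4e-05.

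Of 6 adipocyte markers, 5 varied, 4 with a lower mean at pasture and a median difference of -0.22. Their mean level was 7.49 to 8.29 in outdoor/pasture-fed heifers and 7.25 to 9.15 in indoor/concentrate-fed heifers. *LPL*, the lipase that muscle fibres also make and that works on the capillary wall, differed by 0.58 (SE 0.26, limma adjusted p = 0.427, exact permutation p = 0.0466) and *LEP*, leptin, by -0.22 (SE 0.16, limma adjusted p = 0.656), which was -0.07 without indoor/concentrate-fed heifer 1. Of 12 muscle fibre markers, 10 had a probe set and 4 varied. *MYH1*, the fast IIx myosin heavy chain, had a mean of 13.94 ± 0.05 in outdoor/pasture-fed heifers and 13.81 ± 0.06 in indoor/concentrate-fed heifers (SD, n = 7 each), a difference of 0.14 (SE 0.03, limma adjusted p = 0.148), and *MYL2*, a slow myosin light chain, was flat at 13.58. Of the 8 probe sets of *MYH1*, 7 varied, and only the one with the highest mean was read. The other varying markers, *MYH7*, *TNNT1* and *DES*, differed by 0.11 (SE 0.09), 0.13 (SE 0.10) and -0.06 (SE 0.07).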

How the data were processed

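RNA of LD muscle from 14 heifers was hybridised to Affymetrix GeneChip Bovine Genome Arrays. Before deposit, the authors applied quantile normalisation between arrays and FARMS summarisation of the probes, and the deposited values are log2 expression values per probe set. The authors' filter for informative probe sets needs probe-level data and was not repeated here. Of 24128 probe sets, 112 controls were left out. Differences, outdoor/pasture-fed minus indoor/concentrate-fed, were fitted over the remaining 24016 by limma 3.58.1 (lmFit, then eBayes; R 4.3.3), and a Benjamini-Hochberg adjusted p under 0.05 was called. The fit was tested on simulated data. Two-sided exact permutation tests ran over all 3432 assignments of the arrays, and those of correlations over 5040 pairings per group (NumPy 2.4.6), adjusted over 56. Varying probe sets have an SD above 0.01. This filter uses all 14 arrays, so a difference between the groups adds to the SD. The number of arrays limits the precision.

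Gene names come from the platform annotation, which gives 1 symbol to 13292 probe sets, several to 86 and none to 10638. All probe sets of the 10 genes are named. In each of 13 other lists (other endothelial genes, angiogenic ligands and co-receptors, FZD4 partners, junction partners, Notch, pericytes and smooth muscle, lymphatics, leukocytes, platelets, red blood cells, fibroblasts, adipocytes, muscle fibres) a gene is read by its probe set with the highest mean, and the genes past the threshold or else the 2 with the smallest p are named; genes named beyond this rule were picked after their values were seen. Further, the 10 probe sets most like the members are named. Members and lists were chosen with earlier results of these data known. As alternatives, eBayes was run with a trend or with robust estimation, the replicate number was a block, probe sets were filtered on SD or on mean, values were quantile normalised again or centred, arrays were weighted, the 5 arrays with high scaling factors were a block, and each array was left out in turn. The files name no genome build, so no positions are given.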

Additional observations from a re-analysis of the deposited data

Results flagged for a closer look

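In 62 groups of 7 values (31 named probe sets in 2 groups), the highest or lowest animal stood apart by Dixon's test at its 95% level in 2, where chance alone gives about 1 in 20. For *LEP*, indoor/concentrate-fed heifer 1 had 6.72, with the next highest of its group at 5.96, and without it the difference of -0.22 was -0.07. For *LPL*, indoor/concentrate-fed heifer 3 had 10.20, with the next lowest of its group at 11.04, and without it the difference of 0.58 was 0.42. The same heifer was also among the lowest 3 of the 14 animals for 7 of the 8 endothelial genes. None of the endothelial probe sets had such an animal.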

How the results depend on the processing

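With limma over all probe sets 0 of the 16 endothelial probe sets passed, as under each alternative but 1, in which only probe sets with an SD above 0.1 were tested and 1 passed, *PECAM1* Bt.4653.1.S2_at (adjusted p = 0.0469). The count was 0 with each array left out in turn. Over the whole series 4 probe sets passed, and 2 to 37 did under the alternatives and 1 to 8 with an array left out. With the SD filter of 0.01, 33 of the series and 0 endothelial probe sets passed (smallest adjusted p = 0.0516), and 1 did so without outdoor/pasture-fed heifer 2, without outdoor/pasture-fed heifer 6 or without indoor/concentrate-fed heifer 4, a combination chosen after seeing the data. The 33 then ran from 7 to 68. Of 737 values of 31 single differences under the alternatives, 0 changed direction and 4 crossed the threshold, *PECAM1* as above and Bt.1739.2.S1_at in 3 settings (adjusted p = 0.0251 and 0.0198 with the SD filters of 0.01 and 0.1, and 0.033 without outdoor/pasture-fed heifer 2). With an array left out, the endothelial differences moved by less than 1.5 times, and 8 others by more, running from 0.04 to 0.17 for *JAG1*, 2.4e-05 to 0.21 for *PDGFRA*, 0.13 to 0.28 for *DCN*, 0.18 to 0.44 for *PTPRC*, -0.17 to -0.03 for *CCL21*, -0.27 to -0.07 for *LEP*, -0.12 to -0.06 for *DVL2* and -0.15 to -0.08 for *AHSP*. With array weights *JAG1* was at 0.04 and *PDGFRA* at 0.03.

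The median r of the 28 pairs, 0.32, was 0.61 when the group means were left in, 0.49 with Bt.1739.2.S1_at for *FZD4* (chosen after seeing the data), and 0.21 (without indoor/concentrate-fed heifer 3) to 0.47 (without outdoor/pasture-fed heifer 5) with an array left out. It moved by less than 0.1 under Spearman's rho, centring, renewed quantile normalisation and the array set.

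The replicate numbers pair no animals by the labels. Same-numbered arrays had r between -0.18 and 0.24 over the varying probe sets, above 0.1 in 2 of 7, and 3 of 14 arrays correlated best with their own number. With the replicate block 0 endothelial probe sets passed (smallest adjusted p = 0.314), 2 did in the whole series, and the median r was 0.46.

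The 7 flat probe sets, among them both of *VWF*, set a limit: a change below the reach of their probes was not detectable. With 7 animals a group, the differences of 0.23 to 0.59 had SEs of 0.09 to 0.15.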
